A study of Mus musculus with 10 samples.

Results

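The genes that build cholesterol and fatty acids were compared between 2 immortalized mouse macrophage lines, with and without β-1,3 glucan beads. A list of 31 genes was taken, each matched by its current or an older symbol, and each gene was read by the probe set that is annotated to it alone and has the highest mean signal over the 10 arrays. Of the 31 genes, 30 were measured: 6 of the mevalonate branch, 11 of the sterol branch, 5 regulators and transport genes, and 8 of the fatty acid branch. Acat2 was not analysed here. All tests were run over 19938 named genes. The wild-type line had 3 unstimulated arrays and 3 arrays after 4 h with beads. The source names call its bead arrays wild-type B6 and its unstimulated arrays only wild-type. The line labelled TLR9KO, a knockout of the DNA-sensing receptor Toll-like receptor 9, had 2 unstimulated arrays and 2 arrays after 4 h with beads. Beads were given at 20 per cell. Each genotype was 1 line, with no word on how the lines were immortalized, so genotype and line cannot be told apart. In the titles every array labelled TLR9KO has a lower number than every wild-type array, so whatever that number stands for cannot be told apart from the line either. Within each line every bead array also has a lower number than every unstimulated array. In the comparisons of beads with no beads, that number and the beads cannot be told apart. Whether the arrays of a group stand for separate cultures is not stated, and p-values then measure only the spread between arrays.

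Cholesterol and fatty acid synthesis both start from acetyl-CoA. The mevalonate branch makes isoprenoid units, the sterol branch joins them into squalene, closes the rings and trims lanosterol to cholesterol, and the fatty acid branch makes, lengthens and desaturates acyl chains. Both are driven by the transcription factors SREBP-1 (gene Srebf1), best known for fatty acid genes, and SREBP-2 (gene Srebf2), best known for cholesterol genes. The carrier Scap escorts the SREBP precursors from the endoplasmic reticulum to the Golgi, where they are cut and released, and Insig1 and Insig2 hold Scap back when sterols are abundant. Macrophages use the pathway to make membrane, and export surplus sterol through Abca1 and Abcg1, targets of the oxysterol receptor LXR.

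Array medians lay between 5.75 and 6.10 on the log2 signal scale. Wild-type bead array 3 stood apart: it had the highest median, the narrowest spread of genes (SD 1.75, against 1.86 to 2.00 on the others), and a mean correlation with its group of 0.973, against 0.985 to 0.997 on the others. Values without it are given beside the counts and medians it moved most. The Tlr9 probe set read 7.32, 6.91 and 7.25 on the unstimulated wild-type arrays and 7.44 and 7.62 on the unstimulated arrays labelled TLR9KO. Its signal was thus not lower under the knockout label. Neither the deleted part of the gene nor the position of the probes is stated, so this signal does not check the labels, and every direction between the lines below rests on them. Of 8 macrophage markers, 7 lay above the 75th percentile of genes, with Cd68 and Lyz2 at the top, while none of the measured markers of fibroblasts, adipocytes, hepatocytes, lymphocytes, granulocytes or dendritic cells did. In bulk RNA, fewer cells of a type and less RNA per cell cannot be told apart.

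The 30 genes were well expressed: 25 lay above the 75th percentile of mean signal, and none fell under the 25th percentile on any array. The range ran from percentile 46.9 for Tm7sf2, a sterol reductase, to 99.2 for Scd2, a stearoyl-CoA desaturase.

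Sequences just upstream of the starts are shown for 6 genes on which the comparisons turn, because SREBPs bind short elements there and work beside the factors NF-Y and Sp1. RefSeq promoters (GRCm38.p6) were found for 24 of the 31 genes, with 30 starts in all. The 250 bases before each start were searched on both strands for TCACNCCAC (a sterol regulatory element core), CCAAT (the NF-Y box) and GGGCGG (an Sp1 box). Dhcr7, Fasn and Srebf2 are shown from among the genes that passed the test between the lines. Acaca and Fads2 also passed but are not shown, and their windows held no match to mark. For Scd2, which passed too, no promoter was found. Hmgcs1, Msmo1 and Insig1, chosen after their values were seen, had the largest differences with beads in wild-type arrays. For Dhcr7, which has several starts in the table, the one farthest downstream is shown. The windows of its other starts held no match to TCACNCCAC or CCAAT. Each sequence reads 5′ to 3′ along the gene, and capitals mark matches to TCACNCCAC or to CCAAT, which appears as ATTGG when it lies on the opposite strand.
Hmgcs1 (chr13:119690101-119690350, plus strand): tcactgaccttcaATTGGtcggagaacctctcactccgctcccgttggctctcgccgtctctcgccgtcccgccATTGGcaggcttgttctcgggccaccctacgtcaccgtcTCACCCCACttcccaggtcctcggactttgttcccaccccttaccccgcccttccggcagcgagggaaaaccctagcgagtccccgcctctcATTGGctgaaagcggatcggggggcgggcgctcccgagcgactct
Msmo1 (chr8:64733579-64733828, minus strand): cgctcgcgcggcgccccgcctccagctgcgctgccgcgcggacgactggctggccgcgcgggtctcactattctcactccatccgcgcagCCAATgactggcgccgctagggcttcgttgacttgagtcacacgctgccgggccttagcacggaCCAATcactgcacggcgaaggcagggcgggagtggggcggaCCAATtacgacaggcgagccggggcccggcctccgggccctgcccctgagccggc
Insig1 (chr5:28071162-28071411, plus strand): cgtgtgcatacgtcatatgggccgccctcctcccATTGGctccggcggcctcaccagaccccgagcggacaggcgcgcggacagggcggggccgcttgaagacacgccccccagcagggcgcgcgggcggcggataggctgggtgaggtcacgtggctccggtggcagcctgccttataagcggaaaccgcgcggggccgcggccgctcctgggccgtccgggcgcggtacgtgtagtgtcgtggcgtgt
Dhcr7 (chr7:143829964-143830213, plus strand): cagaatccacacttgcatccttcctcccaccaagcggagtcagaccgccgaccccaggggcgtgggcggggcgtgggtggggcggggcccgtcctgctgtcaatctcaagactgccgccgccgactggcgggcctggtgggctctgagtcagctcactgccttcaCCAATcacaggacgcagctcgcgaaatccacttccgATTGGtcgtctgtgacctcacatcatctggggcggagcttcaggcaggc
Fasn (chr11:120824548-120824797, minus strand): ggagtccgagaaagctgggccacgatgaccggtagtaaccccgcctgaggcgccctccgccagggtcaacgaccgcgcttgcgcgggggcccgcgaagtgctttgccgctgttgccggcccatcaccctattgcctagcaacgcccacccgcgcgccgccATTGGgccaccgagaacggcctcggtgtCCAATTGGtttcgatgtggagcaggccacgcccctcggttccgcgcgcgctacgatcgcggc
Srebf2 (chr15:82147019-82147268, plus strand): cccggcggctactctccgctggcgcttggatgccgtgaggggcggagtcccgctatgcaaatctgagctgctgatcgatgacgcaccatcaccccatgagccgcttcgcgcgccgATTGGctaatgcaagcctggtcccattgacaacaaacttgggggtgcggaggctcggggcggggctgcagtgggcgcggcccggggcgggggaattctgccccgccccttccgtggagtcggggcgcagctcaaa

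Hmgcs1, which makes HMG-CoA, the precursor of mevalonate, was the 1 gene of the 24 with a TCACNCCAC match. The match, TCACCCCAC, began 137 bases before the start. The same core was present upstream of 1.23% of all genes in the table. CCAAT was present upstream of 18 of the 24 genes, against 37.5% of all genes, and GGGCGG upstream of 20 of 24, against 35.4%. The Hmgcs1 window held 3 CCAAT matches, as did those of Msmo1 and Fasn. In Fasn, 2 of the 3 overlap, beginning 62 and 59 bases before the start. The windows of Acaca and Fads2 held no match to TCACNCCAC or CCAAT. These are letter matches in the reference genome, and no binding was measured.

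Without beads, 5 of the 30 genes differed between the lines at an adjusted p under 0.05 (limma, Benjamini-Hochberg over all genes): 4 were lower and 1 was higher in the arrays labelled TLR9KO. Over all genes 8.25% were called, 4.46% lower and 3.79% higher. The 4 lower genes were Dhcr7 of the sterol branch and Acaca, Fasn and Scd2 of the fatty acid branch, and the higher gene was Fads2, also of the fatty acid branch. No gene of the mevalonate branch and no regulator was called. The median difference of the 30 genes was -0.10, against 0.02 over all genes. The arrays of the lines did not overlap in 20 of the 30 genes, 7 higher and 13 lower, where 38.8% of all genes did not, 17.7% higher and 21.1% lower.

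Dhcr7, the reductase that makes cholesterol from its immediate precursor, read 9.90, 9.76 and 9.86 on the unstimulated wild-type arrays and 9.18 and 8.84 on the unstimulated arrays labelled TLR9KO. The groups did not overlap, and the wild-type arrays lay close together. Dhcr7 fell by 0.83 ± 0.15 (SE) on the log2 scale, 1.78-fold (limma, adjusted p = 0.00722). With beads it read 9.77, 9.70 and 9.36 in wild-type arrays and 8.52 and 8.61 in arrays labelled TLR9KO. It was again lower on every TLR9KO-labelled array, by 1.04 ± 0.15, 2.06-fold (adjusted p = 0.00215).

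Acaca, acetyl-CoA carboxylase, which commits carbon to fatty acid synthesis, read 8.75, 8.98 and 8.74 on the unstimulated wild-type arrays against 7.90 and 7.95 under the TLR9KO label. The groups were far apart for their spread. Acaca fell by 0.90 ± 0.17, 1.87-fold (adjusted p = 0.0120), the largest difference of the 30 genes without beads. A second Acaca probe set differed by -0.86 ± 0.24, with adjusted p = 0.0691. With beads Acaca read 8.85, 8.84 and 8.28 against 7.88 and 8.07, again without overlap. The difference of -0.67 ± 0.17 missed the threshold (adjusted p = 0.0502), and without wild-type bead array 3 it passed (2.83e-04).

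Fasn, fatty acid synthase, read 10.16, 10.25 and 10.05 against 9.18 and 9.62 without beads. All wild-type arrays were higher, and the TLR9KO-labelled pair differed from each other by more than the wild-type arrays did. Fasn fell by 0.75 ± 0.14, 1.68-fold (adjusted p = 0.0107). With beads it read 10.03, 10.09 and 9.84 against 9.64 and 9.56. The groups did not overlap, but the difference of -0.38 ± 0.14 did not pass (adjusted p = 0.190; 0.0371 without wild-type bead array 3).

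Scd2 and Scd1 are related desaturases that place the double bond of oleate and palmitoleate. Scd2 read 11.97, 11.94 and 11.86 in unstimulated wild-type arrays and 11.23 and 11.37 under the TLR9KO label, a fall of 0.62 ± 0.16 or 1.54-fold (adjusted p = 0.0413). With beads it read 11.72, 11.67 and 11.18 against 10.66 and 10.82, lower under the TLR9KO label by 0.78 ± 0.16 or 1.72-fold (adjusted p = 0.0149). Every TLR9KO-labelled array thus lay under every wild-type array of its condition. Scd1 had the opposite sign, at 10.05, 10.25 and 9.87 against 10.33 and 10.61 without beads. That difference of 0.41 ± 0.19 did not pass (adjusted p = 0.298), nor did 0.60 ± 0.19 with beads (0.109). The 2 genes are close relatives, and how far their probes tell them apart was not tested.

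Fads2 and Fads1 desaturate polyunsaturated fatty acids. Fads2 read 9.44, 9.28 and 9.28 in unstimulated wild-type arrays and 9.92 and 10.12 under the TLR9KO label. It rose by 0.69 ± 0.16, 1.61-fold (adjusted p = 0.0253), without overlap. With beads the arrays read 9.24, 9.24 and 8.75 against 9.81 and 9.92, and the difference was 0.79 ± 0.16, 1.73-fold (adjusted p = 0.0140). Fads1 had the same sign, by 0.24 ± 0.09 without beads (adjusted p = 0.162) and 0.28 ± 0.09 with them (0.101), neither of which passed.

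**Figure D1:**
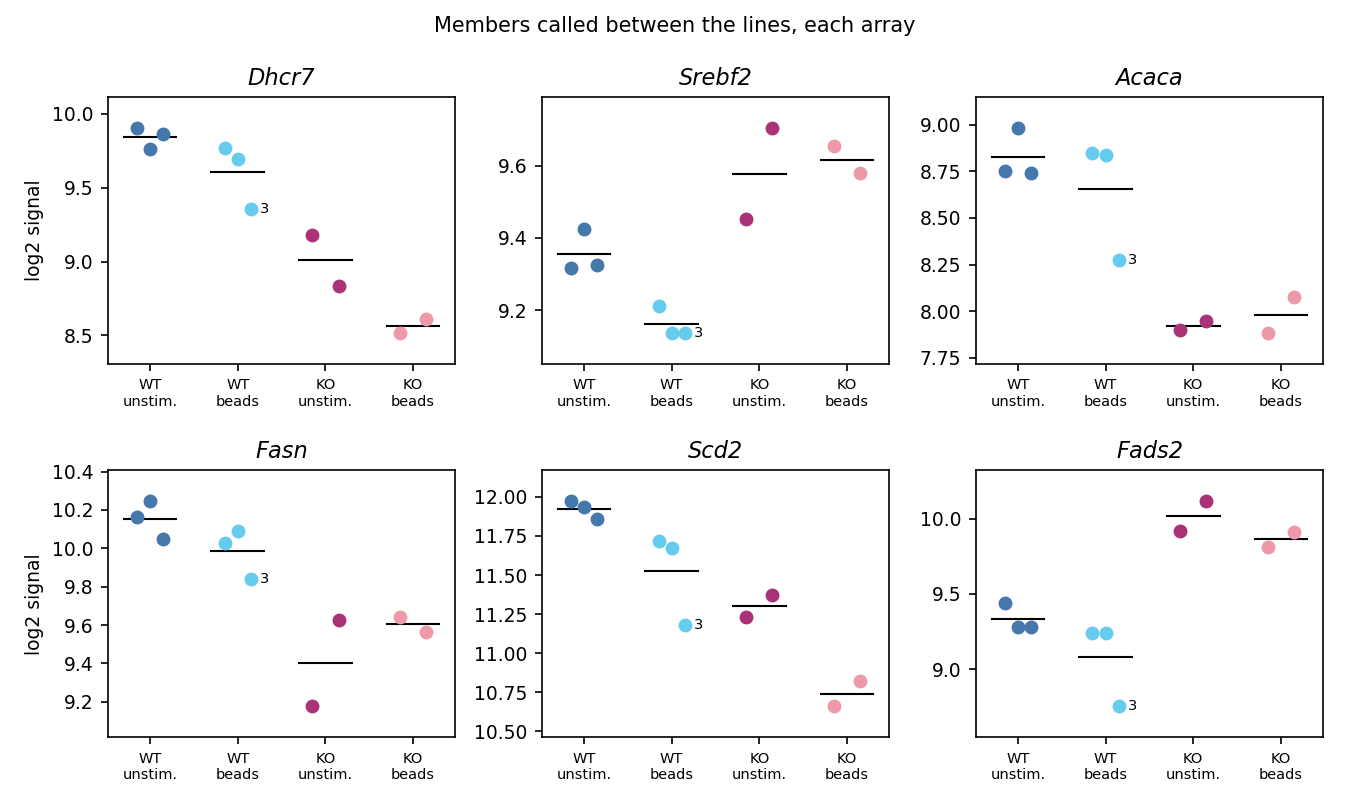
Log2 signal on each of the 10 arrays for the genes that passed the test between the lines in at least 1 condition, with points for arrays, bars for group means, a 3 beside wild-type bead array 3, and KO for the arrays labelled TLR9KO. Dhcr7, Acaca, Fasn and Scd2 lie lower on the arrays labelled TLR9KO than on the wild-type arrays of the same condition, and Fads2 lies higher.

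With beads, 4 of the 30 genes differed between the lines: 2 were higher (Fads2 and Srebf2) and 2 were lower (Dhcr7 and Scd2) under the TLR9KO label. Over all genes 7.22% were called, 3.82% higher and 3.4% lower. The median of the 30 genes was -0.04, against -0.01 over all genes. The arrays did not overlap in 15 of 30, 10 higher and 5 lower, where 23.6% of all genes did not, 11.3% higher and 12.3% lower. Without wild-type bead array 3, 11 were higher and 16 lower, where 36.7% and 27.8% of all genes were, and the median was -0.10. Over all fits with 1 array left out the median ran from -0.10 to 0.01 with beads, turning sign without wild-type bead array 1 or TLR9KO-labelled bead array 1, and from -0.12 to -0.03 without beads. The line difference had the same sign without and with beads in 28 of the 30 genes, which was not counted over all genes.

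Among the regulators, Srebf2 read 9.32, 9.43 and 9.32 on the unstimulated wild-type arrays and 9.45 and 9.70 on those labelled TLR9KO, a difference of 0.22 ± 0.10 with no call (adjusted p = 0.295). On the bead arrays it read 9.21, 9.14 and 9.14 against 9.65 and 9.58. The groups were then widely separated, and Srebf2 was higher under the TLR9KO label by 0.45 ± 0.10, 1.37-fold (adjusted p = 0.0251). Srebf1 had the opposite sign, at 9.07, 8.90 and 8.89 against 8.66 and 8.77 without beads, a difference of -0.24 ± 0.11 (adjusted p = 0.277). With beads Srebf1 read 8.76, 8.72 and 8.55 against 8.61 and 8.69, and the groups overlapped. Scap read 9.76, 9.18 and 9.60 against 9.38 and 9.27 without beads, and 9.74, 9.66 and 9.38 against 9.38 and 9.41 with them, and overlapped in both conditions. Insig1, itself an SREBP target, read 10.00, 9.84 and 9.89 against 9.67 and 9.41 without beads, lower under the TLR9KO label by 0.37 ± 0.24 without passing (adjusted p = 0.604). The sterol carrier Stard4 differed by -0.07.

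The signs of the members were counted by branch. Over all genes 45% had a negative difference without beads and 53.5% with them. All 6 mevalonate genes had a positive difference without beads, with a median of 0.22, and 5 of 6 with beads, with a median of 0.30, but none passed in either condition. Hmgcs1 was the nearest, at 8.03, 7.87 and 7.71 in wild-type bead arrays against 8.30 and 8.35 under the TLR9KO label, a difference of 0.46 ± 0.13 (adjusted p = 0.0660; 0.0387 without wild-type bead array 3). Idi1, the isomerase of the isoprenoid units, had the largest mevalonate difference with beads, 0.64 ± 0.32, but its arrays were spread from 6.16 to 7.21 in the wild-type bead group. In the sterol branch 7 of 11 genes were negative without beads, with a median of -0.36, and the median was -0.24 with beads. Beside Dhcr7, Hsd17b7, a sterol ketoreductase, just missed the threshold without beads, at 8.37, 8.65 and 8.50 against 8.0 and 7.99, a difference of -0.51 ± 0.13 (adjusted p = 0.0501). Squalene epoxidase, Sqle, differed by -0.36 ± 0.11 (adjusted p = 0.0755) and the desaturase Sc5d by -0.43 ± 0.16 (0.170). The fatty acid branch, which held 4 of the 5 calls without beads, had a median of -0.23, and -0.19 with beads. In each condition 5 of its 8 genes were negative. Without wild-type bead array 3 the medians with beads were -0.40 for the sterol and -0.30 for the fatty acid branch.

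**Figure D2:**
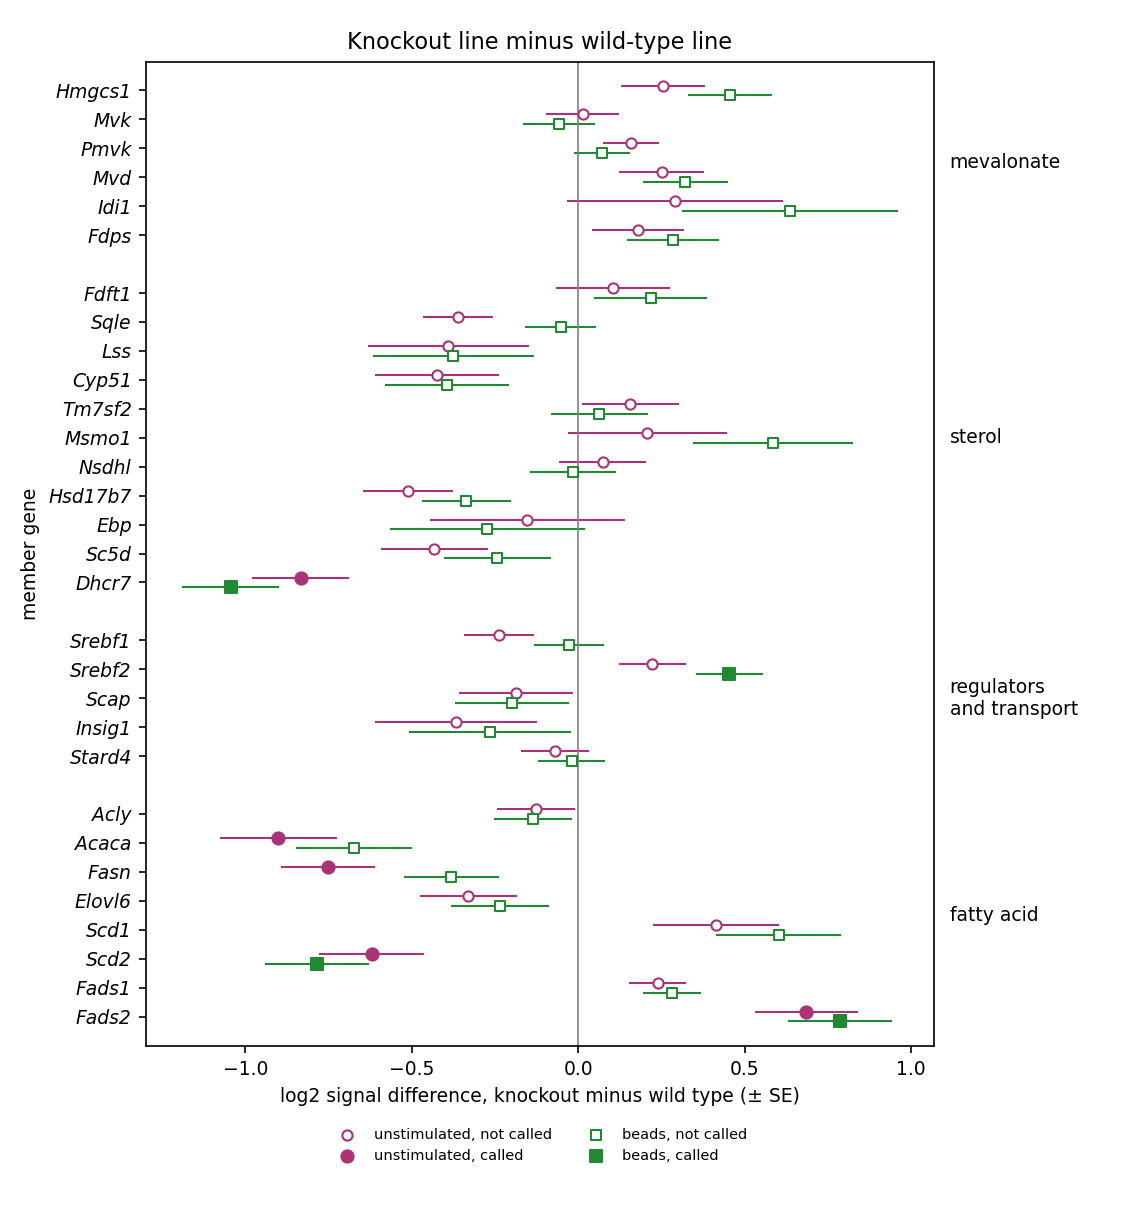
Difference between the lines (TLR9KO label minus wild type, log2, bars ± SE from limma, filled where it passed) for each of the 30 genes, grouped by branch, without and with beads. The mevalonate genes have medians of 0.22 and 0.30, and the genes that passed lie in the sterol, regulator and fatty acid branches.

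The number of calls depended on single arrays. Without wild-type bead array 3, which shares the spread estimate, 2 genes were higher and 9 lower without beads, where 7.08% of all genes were called higher and 11.3% lower. With beads 3 were higher and 10 lower, where 7.19% and 13.7% of all genes were. Hsd17b7, Sqle, Sc5d, Lss and Elovl6 then joined the lower genes and Scd1 the higher ones without beads. Leaving out unstimulated TLR9KO-labelled array 1 left Dhcr7 as the 1 gene called without beads, leaving out array 2 left Fasn, and leaving out either bead array of that line left Dhcr7 as the 1 gene called with beads. The shares of all genes called in these fits were 3.42%, 3.68%, 3.48% and 2.99%. In these fits the remaining lone array was assumed to vary like the other groups. Without any 1 of the unstimulated wild-type arrays, Acaca, Dhcr7 and Fasn were called without beads, where 4.96% to 5.52% of all genes were. Leaving out wild-type bead array 2 left 1 gene higher and 1 lower with beads, where 4.9% of all genes were called. Centring arrays on their medians left 0 genes called without beads (3.79% of all genes) and Dhcr7 alone, lower, with beads (3.53%). Srebf2 with beads passed under 9 of 18 alternatives. Dhcr7 with beads passed under all 18 alternatives run.

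Neither line had a gene that passed the test of beads against no beads, among the 30 or among all 19938 (limma; 0% called). At an unadjusted p under 0.05 there were 11 of the 30 genes in wild-type arrays, against 0.838% of all genes, and 2 of 30 in arrays labelled TLR9KO, against 1.8%. These counts depended on the fit. In wild-type and TLR9KO-labelled arrays, median centring gave 3 and 1 of 30, and quantile normalization 14 and 6. Leaving out wild-type bead array 3 gave 8 and 6. The shares of all genes at that cutoff were not counted in these fits. In wild-type arrays 28 of the 30 genes had a negative difference, against 43.7% of all genes, with a median of -0.25 against 0.01. The signal of 17 of the 30 was lower on every bead array than on every unstimulated wild-type array, which held for 1.24% of all genes, and 0 were higher on every bead array, against 2.29% (3.53% in either direction). Wild-type bead array 3 moved with these values: of the 7140 genes with a mean signal of 7 to 11, as most of the 30 have, 60.2% were negative with it and 24% without it. Without it, 24 of the 30 were negative and their median was -0.14. Leaving out an array can only keep or add genes whose groups do not overlap, so the 17 remained. No other of the 30 joined them, while this then held for 15.4% of all genes and 5.25% of those 7140. In 1 of 30 the bead arrays lay above all unstimulated arrays, against 18.1% of all genes.

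The largest wild-type differences were in Msmo1, Insig1 and Hmgcs1. Msmo1, the oxidase that removes methyl groups from the sterol ring, read 9.97, 10.17 and 9.93 without beads and 9.68, 9.67 and 8.82 with them. All bead arrays were lower, and array 3 was much the lowest. The difference of -0.63 ± 0.21 had a 95% interval of -1.11 to -0.15 before adjustment, and was -0.35 without array 3. Insig1 read 9.69, 9.67 and 8.84 with beads, also under all unstimulated arrays, a difference of -0.51 ± 0.22, and -0.23 without array 3. Hmgcs1 read 8.47, 8.45 and 8.23 without beads and 8.03, 7.87 and 7.71 with them. Its arrays did not overlap and array 3 stood less apart, and its difference was -0.51 ± 0.11, or -0.43 without that array.

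By branch, the wild-type medians were -0.37 for mevalonate, -0.30 for sterol, -0.19 for regulators and -0.21 for fatty acid genes. Leaving out wild-type bead array 3 gave -0.29, -0.15, -0.18 and -0.089. With all arrays 11 of 11 sterol, 8 of 8 fatty acid and 5 of 6 mevalonate genes were negative, and without array 3 these were 9, 6 and 5. Farnesyl diphosphate synthase, Fdps, read 8.72, 8.53 and 8.62 without beads and 8.10, 8.21 and 8.41 with them, and mevalonate decarboxylase, Mvd, read 8.45, 8.55 and 8.45 against 8.12, 8.07 and 8.22. In both, array 3 was the highest of the bead arrays, unlike in Msmo1 and Insig1. Their differences were -0.38 and -0.35, and -0.47 and -0.39 without array 3. Srebf1 differed by -0.28 ± 0.09 and Srebf2 by -0.19 ± 0.09, each lower on every bead array. Mvk and Scap had positive differences, 0.04 and 0.08. Without array 3 Ebp, Hsd17b7, Acly and Acaca were positive too, Ebp the most, at 0.31.

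**Figure D3:**
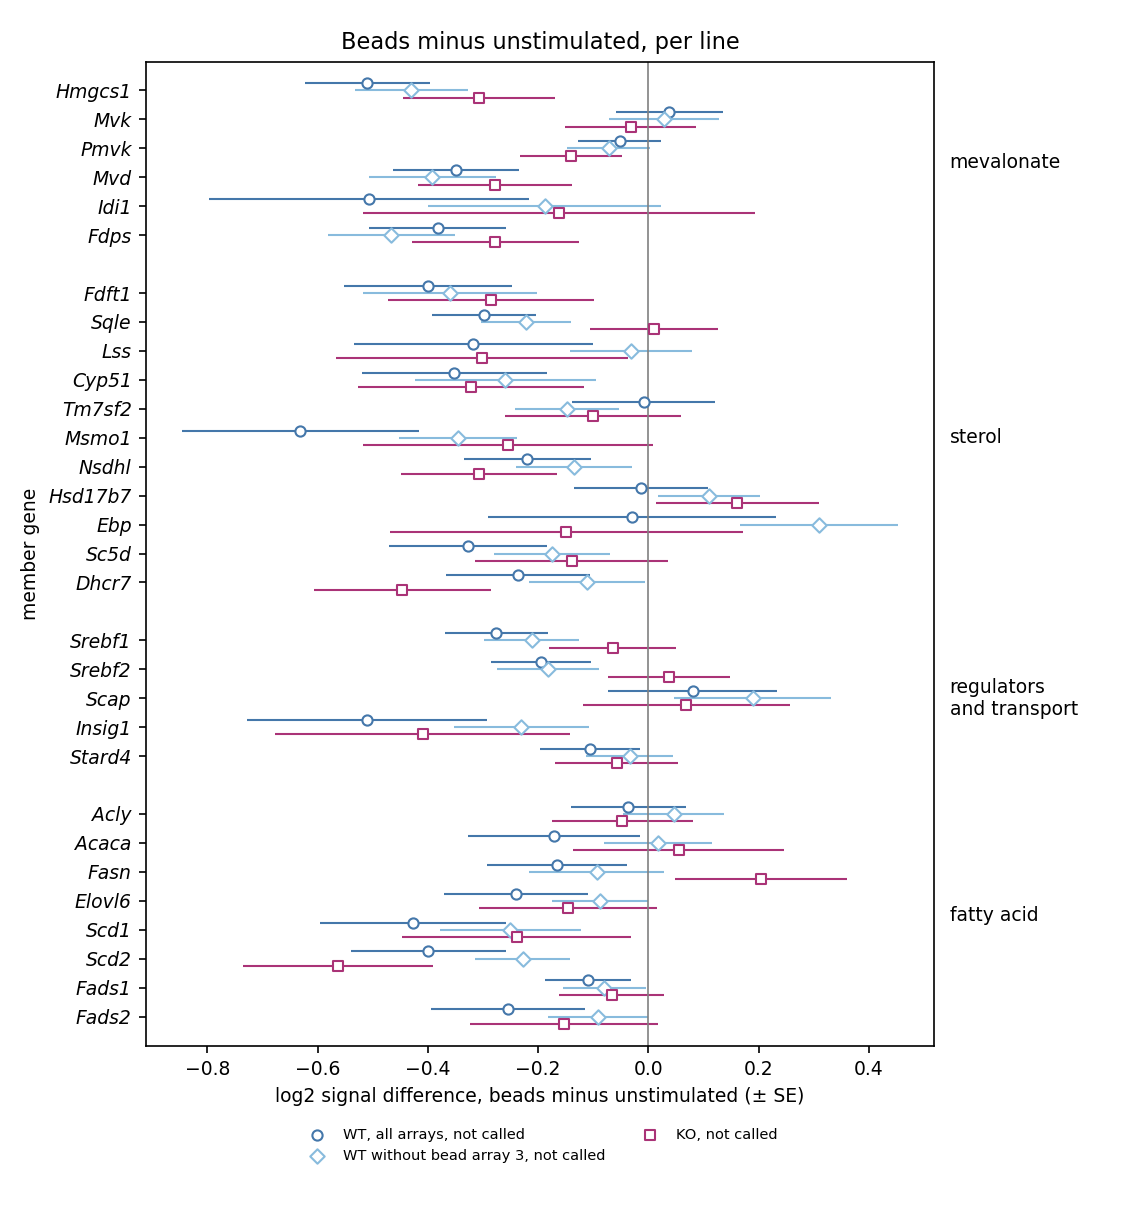
Difference with beads (beads minus unstimulated, log2, bars ± SE from limma) in each line for each of the 30 genes, grouped by branch, with diamonds for wild-type arrays without bead array 3. In wild-type arrays 28 of 30 and in arrays labelled TLR9KO 24 of 30 lie on the negative side, and none passed the test over all genes.

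In the line labelled TLR9KO, 24 of the 30 genes had a negative difference with beads, against 48.2% of all genes, with a median of -0.15 against 0.00. Without bead array 1 of that line 22 were negative and the median was -0.087. In 16 genes both bead arrays lay under both unstimulated arrays, against 11.2% of all genes, and in 1, Hsd17b7, above them, against 13.2% (24.4% in either direction). Scd2 had the largest difference, reading 11.23 and 11.37 without beads and 10.66 and 10.82 with them. Both bead arrays were well below, and the difference was -0.56 ± 0.17. Dhcr7 read 9.18 and 8.84 against 8.52 and 8.61, a difference of -0.45 ± 0.16, again without overlap. Insig1 read 9.67 and 9.41 against 8.94 and 9.33, also lower on both bead arrays, by -0.41 ± 0.27. Fasn had the largest positive difference, 0.20 ± 0.16, but its arrays overlapped, at 9.18 and 9.62 against 9.64 and 9.56. Srebf2 differed by 0.04 and Srebf1 by -0.06.

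In 11 of the 30 genes the bead arrays lay under the unstimulated arrays in both lines, which held for 0.336% of all genes, 67 in number. These were Hmgcs1, Pmvk, Mvd and Fdps of the mevalonate branch, Fdft1, Msmo1, Nsdhl and Sc5d of the sterol branch, Insig1, and Scd2 and Fads2 of the fatty acid branch. They made up 36.7% of the measured list and 16.4% of the 67 genes. Leaving out wild-type bead array 3 could only keep or add genes, so these 11 remained. No other of the 30 joined them, while 1.61% of all genes then met this condition.

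The difference in bead response between the lines passed in 0 of the 30 genes and in 0% of all genes, and 0 of the 30 were at an unadjusted p under 0.05 (limma), against 0.863% of all. The largest were Msmo1 at 0.38 ± 0.34, with a 95% interval of -0.39 to 1.14, Fasn at 0.37 ± 0.20, with an interval of -0.08 to 0.82, and Idi1 at 0.35 ± 0.46. Without wild-type bead array 3 these were 0.09, 0.30 and 0.03, and the largest were Ebp at -0.46 ± 0.21, Dhcr7 at -0.34 ± 0.16 and Scd2 at -0.33 ± 0.13, again with 0 of 30 called. With all arrays the intervals of all 30 genes included 0, and they are wide enough to hold differences as large as the responses themselves.

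Averaged over each branch and set against the unstimulated wild-type mean, the mevalonate genes lay at -0.23, -0.27 and -0.37 on the wild-type bead arrays, 0.12 and 0.26 on the unstimulated arrays labelled TLR9KO, and -0.04 and 0.02 on their bead arrays. The unstimulated TLR9KO-labelled arrays were the highest of all, and their bead arrays lay near the unstimulated wild type. The sterol genes lay at -0.11, -0.14 and -0.52, then -0.18 and -0.28, then -0.52 and -0.33. Wild-type bead array 3 reached the level of the lowest array labelled TLR9KO, while the other wild-type bead arrays did not. The fatty acid genes lay at -0.08, -0.11 and -0.48, then -0.26 and -0.08, then -0.34 and -0.24. The regulators lay between -0.42 and -0.06 on all arrays of these 3 groups, with array 3 again the lowest.

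**Figure D4:**
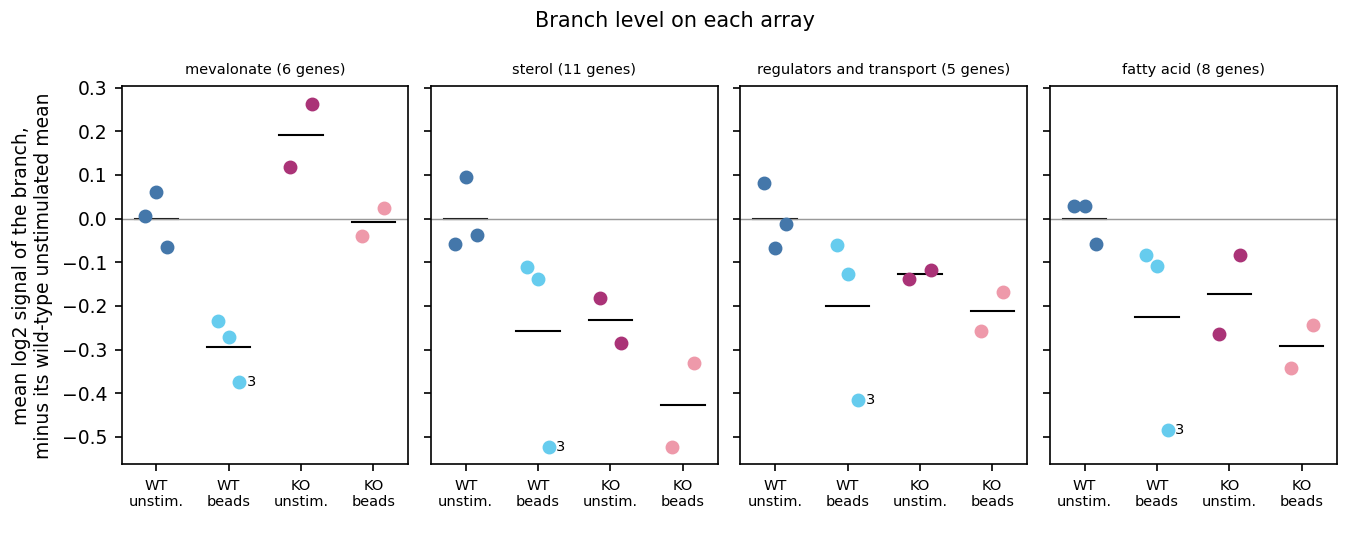
Mean log2 deviation of each branch from its unstimulated wild-type mean on each of the 10 arrays, with bars for group means and KO for the arrays labelled TLR9KO. Mevalonate genes reach 0.26 on an unstimulated array labelled TLR9KO, while sterol and fatty acid genes lie below 0 on all arrays of that line.

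Of 30 further genes of sterol sensing, uptake, export and lipid supply, 23 were measured, and the rest were not analysed here. Without beads, 3 were higher and 2 lower under the TLR9KO label, where 3.79% and 4.46% of all genes were. The exporter Abca1 read 8.61, 8.74 and 8.50 against 9.50 and 9.96, a rise of 1.11 ± 0.16 (adjusted p = 0.00245), and the exporter Abcg1 read 10.16, 10.15 and 10.11 against 10.76 and 11.06, a rise of 0.77 ± 0.11 (adjusted p = 0.00178). Npc2, which binds cholesterol in lysosomes, rose by 0.71 ± 0.15 (adjusted p = 0.0174). Insig2, the second retention protein of Scap, read 7.83, 8.08 and 7.89 against 6.99 and 7.37, and fell by 0.75 ± 0.13 (adjusted p = 0.00598). Gpam, which starts glycerolipid synthesis, fell by 0.92 ± 0.21 (adjusted p = 0.0239). With beads 4 were higher and 1 lower under that label, where 3.82% and 3.4% of all genes were. Set against wild-type bead arrays, Abca1, Abcg1, Npc2 and malic enzyme, Me1, were higher by 0.91, 0.63, 0.71 and 0.91. Insig2 was lower by 0.55. Without wild-type bead array 3 the counts were 4 higher and 5 lower without beads, where 7.08% and 11.3% of all genes were called. With beads they were 4 and 4, where 7.19% and 13.7% were called. Me1 then joined the higher genes without beads, and Aacs, Elovl5 and Lpin1 the lower ones, while Aacs, Elovl5 and Gpam joined the lower ones with beads. The test of beads passed in 0 of the 23 in either line (limma), and in 0% of all genes. Medians were -0.12 in wild-type arrays, or -0.01 without array 3, and -0.04 in arrays labelled TLR9KO. In 5 of the 23 the bead arrays lay under the unstimulated arrays in both lines, against 0.336% of all genes. These were Aacs, Lpin1, Pcyt2, Slc25a1 and Abcg1. In 0 of the 23 the bead arrays lay above in both lines, which held for 119 of all 19938 genes. Without wild-type bead array 3 the same 5 were lower in both lines, against 1.61% of all genes. In 1 of the 23 the bead arrays then lay above in both lines, which held for 803 of all genes.

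Values of other gene lists moved with the comparison of the lines. Of 10 measured interferon-stimulated genes, 9 were higher under the TLR9KO label in both conditions, with medians of 2.75 and 2.81. Over all genes 3.79% were called higher without beads and 3.82% with them, and 4.46% and 3.4% lower. Their mean signal was 6.10 to 6.23 on the wild-type arrays and 8.60 to 8.84 on those labelled TLR9KO. Of 14 measured genes of DNA replication and division, 7 were lower without beads, with a median of -0.77, and 4 were lower with beads, with a median of -0.56. Their mean signal was 9.96 to 10.04 and 9.60 to 10.15 on the unstimulated and bead arrays of the wild type, against 9.18 to 9.27 and 9.32 to 9.49 under the TLR9KO label. When wild-type bead array 3 was left out, 14 and 12 of the 14 were lower and 10 of 10 interferon-stimulated genes were higher. The shares of all genes then rose too, to 11.3% lower and 7.08% higher without beads, and 13.7% and 7.19% with them. Of the 8 macrophage markers, 3 were higher and 1 lower in each condition, or 5 and 1 without beads when that array was left out, and of the measured markers of the other cell types none passed in any comparison. The part of these differences in the lipid gene results was not tested.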

How the data were processed

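RNA from 10 samples was hybridised to Affymetrix arrays as biotin-labelled cDNA (100 ng of total RNA, 5.5 µg of cDNA, per the labels' protocols). The authors deposited log2 signals for 28853 probe sets, made by RMA per the submitters' processing notes. No RMA setting or version is stated. RMA is meant to put all arrays on a common distribution of probe signals, so a value is relative to the other arrays. The deposited probe set values still differed between arrays, with medians from 5.75 to 6.10. Of the probe sets, 21789 carry 1 gene symbol, 1621 several and 5443 none in the platform annotation, and symbols of 21698 were updated by Entrez ID. The probe set with the highest mean stood for each of 19938 genes, 999 of which had several. Deposited values ran from 3.08 to 13.8. The number of arrays, 2 or 3 a group, limits the precision.

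Group means were fitted to all 10 arrays with limma 3.58.1 in R 4.3.3 (6 residual and 3.23 prior degrees of freedom, eBayes with neither trend nor robust option, two-sided, Benjamini-Hochberg over all genes, threshold 0.05), after a check on simulated data. Alternatives were other scalings, array weights, fits to the compared groups alone and each array left out. Values are given for genes that passed, the 3 with the largest difference in each comparison, Srebf1, Srebf2, Scap and Insig1. Others, among them Scd1, Fads1, Hsd17b7, Sqle, Sc5d, Fdps and Mvd, were named after their values were seen. The members and lists were chosen with earlier results of these data known.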

Additional observations from a re-analysis of the deposited data

How the results depend on the processing

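No paired analysis was possible because array numbers in the titles differ between groups and pair nothing. Of the 18 single-gene values followed through all alternatives, none that was called turned sign, while Ebp with beads in wild-type arrays, -0.03 and not called, was called higher under array weights. Between the lines without beads (1 higher and 4 lower of 30), median centring gave 0 and 0 (3.79% of all genes called), quantile normalization 2 and 7 (12.5%), array weights 5 and 10 (22.3%), gene-by-gene array weights, chosen after seeing the data, 4 and 10 (20.9%), and the compared groups alone 1 and 9 (16.4%), against 8.25% in the reported fit. Leaving out 1 array gave 0 to 2 higher and 1 to 9 lower. With beads (2 and 2), median centring gave 0 and 1 (3.53%), quantile normalization 4 and 3 without Srebf2 (11.4%), array weights 9 and 11 (30.5%), gene-by-gene weights 7 and 11 (22.7%), and the compared groups alone 0 and 1 (2.41%), against 7.22%. Leaving out 1 array gave 0 to 3 higher and 1 to 10 lower. For beads in wild-type arrays, array weights gave 1 higher and 15 lower, where 20% and 26% of all genes were, with a median of -0.14, and gene-by-gene weights 5 lower (Fdps, Hmgcs1, Msmo1, Mvd and Sqle), where 3.5% were, with a median of -0.12. Leaving out 1 array gave medians of -0.32 to -0.14, and -0.19 to -0.087 in the line labelled TLR9KO. The median difference in bead response was -0.021 and -0.033 under these weights, against 0.10, and 0.012 to 0.16 with 1 array left out. The array weights stopped before convergence and gave wild-type bead array 3 a weight of 0.0701. They gave wild-type bead array 2 a weight of 12.1 and array 1 a weight of 0.921. Wild-type bead means in that fit thus rest mostly on array 2. The cause of the other shifts was not tested. With 2 or 3 arrays a group, a difference that did not pass is not shown to be absent.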
